A study of Mus musculus with 6 samples.

Results

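The potassium channel genes of the adrenal medulla are described here, taken as every gene with a symbol starting with Kcn in the platform's probe-gene table that is the only symbol of its probe set. There were 84 such genes among 18193 genes with a symbol of their own, read by 167 probe sets (groups of short probes for 1 transcript). Of these, 31 genes with 43 probe sets reached log2 4 on at least 3 of the 6 arrays and were tested, and 53 genes did not. The tissue was adrenal medulla microdissected from 12 µm cryosections of male C57/Bl6 mice, 8 weeks after transverse aortic constriction (TAC, which loads the heart with pressure) or after sham surgery. Each group held 3 mice, with 1 array per mouse and RNA pooled from both medullae of that mouse. The labels give no genetic modification and no age.

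Potassium channels let potassium leave the cell, which holds the resting membrane potential and ends each action potential. Chromaffin cells, the adrenaline- and noradrenaline-releasing cells of the medulla, fire action potentials, and the calcium entry during these triggers secretion. Pore-forming subunits fall into voltage-gated families (Kcna to Kcnd, Kcnh, Kcnq), calcium- or sodium-activated ones (Kcnma1, Kcnn, Kcnt), inward rectifiers (Kcnj) and tandem-pore leak channels (Kcnk), and auxiliary subunits (Kcnab, Kcne, Kcnip, Kcnmb) set their gating or surface number. Kcnh2 encodes the ERG channel, known for repolarising the heart's action potential.

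None of the 43 Kcn probe sets passed the test between TAC and sham. With limma and Benjamini-Hochberg adjustment over all 18188 tested probe sets, 0 of 43 had an adjusted p under 0.05, beside 0% of all tested. At an unadjusted p under 0.05, 3 of 43 were called (6.98%), beside 6.94% of all tested, a share near the background. All 3 were higher after TAC (background 4.65%), and 0 were lower (background 2.29%). They belonged to Kcnh2, Kcnc4 and Kcnq3. The count was 1 without TAC 3, where Kcnh2 was left, beside 695 of all 18188 tested. It was 5 without sham 1, of which 3 were higher and 2 lower, beside 2429 of all tested. Without TAC 2 it was 3, with 2 higher and 1 lower, beside 1218 of all tested. Of the reported members, Kcnh2 alone was among these 3.

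The groups did not overlap at 4 of 43 probe sets (9.30%), beside 13.0% of all tested. TAC lay above sham at 3 (background 9.01%) and below it at 1 (background 4.01%), a probe set of Kcnip1. With 1 probe set per gene (the brightest tested one over the 6 arrays), 20 of 31 genes were higher and 11 lower after TAC, with a median difference of 0.05 on the log2 intensity scale. Over 10181 genes 58.7% were higher, with a median of 0.09. The median Kcn intensity per array was 6.06, 6.48 and 6.38 on TAC 1 to 3 and 6.01, 6.18 and 6.25 on sham 1 to 3. The sham medians equalled the Kcnh2 values on those arrays, so this median is not independent of that gene. The mean over the 31 genes lay between 6.62 and 6.68 after TAC and between 6.42 and 6.63 after sham. All differences below are TAC minus sham in log2 intensity, with the standard error (SE) of the limma fit, n = 3 arrays per group, and adjusted p-values from that fit.

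**Figure D1:**
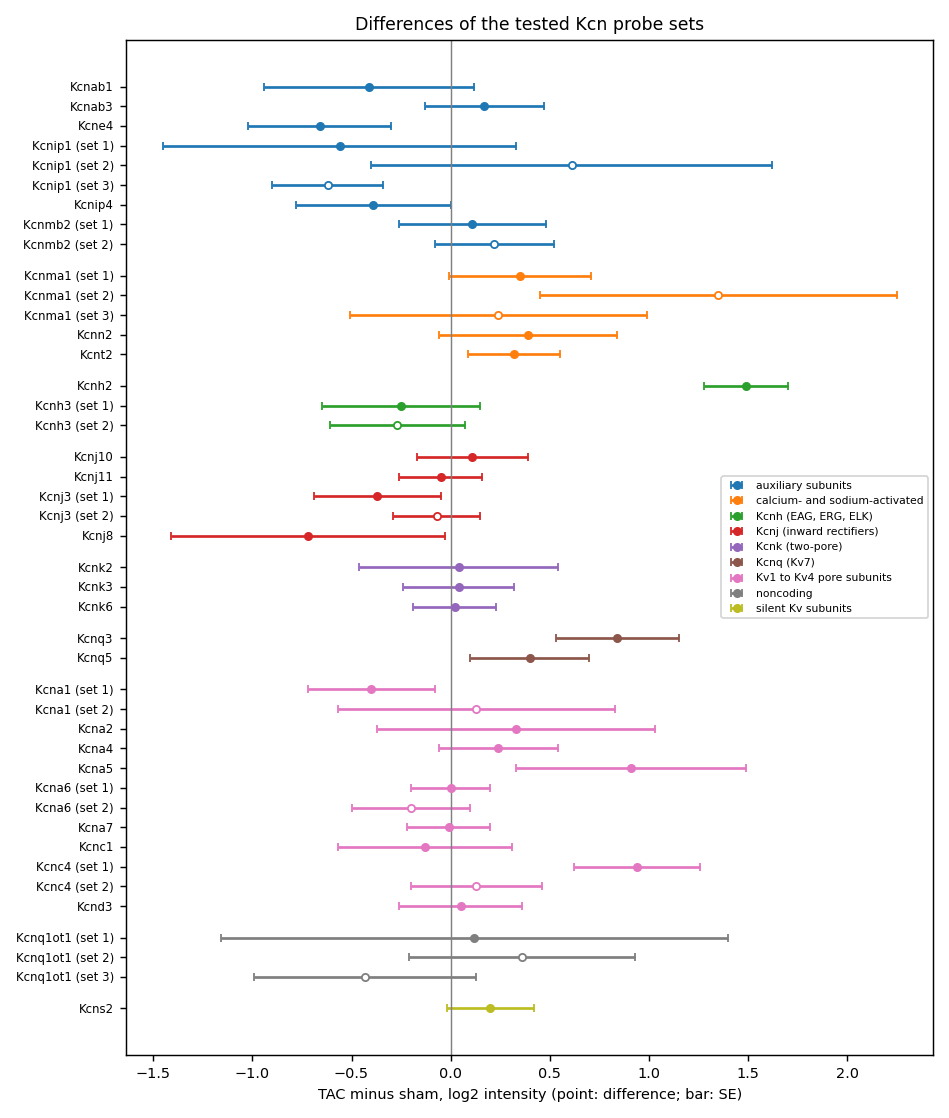
TAC minus sham in log2 intensity (x axis) with its SE (bars, n = 3 arrays per group) for the 43 tested Kcn probe sets (y axis), coloured by role; filled points stand for the gene and open points are its other probe sets. The Kcnh2 point, at 1.49, is the highest of the filled points, followed by Kcnc4 at 0.94, Kcna5 at 0.91 and Kcnq3 at 0.84.

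All arrays carried chromaffin markers, and they differed in RNA quality and in markers of other tissue. The mean of 11 tested chromaffin markers (of 12 fixed, among them Th, Dbh, Pnmt and Chga) lay between 11.87 and 12.53 on the 6 arrays. The Gapdh 3′ minus 5′ control difference, larger where transcripts are shortened, was 4.71, 3.67 and 3.98 on TAC 1 to 3 and 5.15, 3.08 and 2.88 on sham 1 to 3 (exact 2-sided permutation p = 0.6). The mean of 8 tested adrenal cortex markers (of 12 fixed) ranged from 6.65 to 10.51, with the highest values on sham 3 (10.51) and TAC 1 (9.23). Fibroblast markers (6 of 6 tested) had means of 5.96 to 7.20 after TAC and 7.21 to 8.56 after sham, and sustentacular and Schwann cell markers (4 of 6 tested) 7.53 to 7.99 and 7.31 to 7.44. Both list means separated the groups, at exact permutation p = 0.1 each, the lowest that 3 against 3 arrays allow. Single markers did not all do so. S100b was lower after TAC (-0.21) while Erbb3, Mbp and Sox10 were higher, and S100b, Erbb3, Col1a1, Dcn and Lum overlapped between groups. The part of these cell types in the Kcn results was not tested. The means of smooth muscle, endothelial, macrophage and ganglion neuron markers overlapped between groups. In such bulk tissue, fewer cells of a type and less RNA per cell cannot be told apart.

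Kcnh2 was read by 1 probe set, 1449544_a_at, so no other probe set of the gene could be set beside it. Its log2 intensity was 7.69, 7.59 and 7.62 on TAC 1 to 3, and 6.01, 6.18 and 6.25 on sham 1 to 3. Every TAC array lay above every sham array, and the gap between the groups exceeded the spread within either. The means were 7.63 ± 0.05 (SD) and 6.15 ± 0.13, a 2.80-fold difference. The difference was 1.49 ± 0.21 SE (95% interval 0.98 to 2.00), with a limma adjusted p of 0.384 over all tested probe sets (unadjusted p = 0.000354). An exact 2-sided permutation test over the 6 arrays gave p = 0.1, the smallest that this design can give. TAC 1 and sham 1, whose Gapdh difference was largest in their groups, stood at 7.69 and 6.01, and without both of them the difference was 1.39. It stayed between 1.42 and 1.54 when any single array was left out. Kcnh2 was singled out with its earlier result in these data known.

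Of the other genes of its family, Kcnh3, an ELK channel gene, was tested at 1459107_at and 1445805_x_at, while its probe sets 1431690_at and 1421619_at were below the filter. Both tested probe sets read lower, with differences of -0.25 ± 0.40 SE and -0.27 ± 0.34 SE (limma adjusted p = 0.983 and 0.980). At 1459107_at the sham arrays lay close together at 7.60, 7.53 and 7.58, and TAC 1 to 3 at 7.97, 6.51 and 7.48, on both sides of them. Without TAC 2, the array that read lowest, the difference turned to 0.16. The EAG gene Kcnh1, Kcnh5, the ERG gene Kcnh7 and Kcnh8 did not reach log2 4 on 3 arrays.

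Kcnc4 encodes Kv3.4, a fast inactivating channel of the Kv3 group. Its probe set 1425090_s_at measured 10.11, 10.25 and 10.44 on TAC 1 to 3 and 8.75, 9.61 and 9.62 on sham 1 to 3. The groups did not overlap, with sham 1 well below the other sham arrays. The difference was 0.94 ± 0.32 SE, 1.92-fold (limma adjusted p = 0.618, unadjusted p = 0.0246), and 0.65 without sham 1. The unadjusted p was 0.0551 without TAC 2 and 0.0805 without TAC 3. The suffix s marks probes shared by several transcripts. The gene's other probe set, 1425089_at, differed by 0.13 ± 0.33 SE, and the groups overlapped there, with 4.01 on sham 1 as the lowest value.

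Kcnq3 encodes a Kv7 subunit of the M current, the slow current that muscarinic receptors shut. Its tested probe set, 1435957_at, measured 9.24, 9.92 and 9.97 on TAC 1 to 3 and 8.55, 8.94 and 9.12 on sham 1 to 3. The lowest TAC array (TAC 1) was just above the highest sham array (sham 3). The difference was 0.84 ± 0.31 SE, 1.79-fold (limma adjusted p = 0.672, unadjusted p = 0.0333). The unadjusted p lay between 0.0722 and 0.109 when TAC 2, TAC 3, sham 1 or sham 2 was left out. The gene's other probe set, 1458421_at, was below the filter, at 3.99, 3.07 and 2.51 on TAC 1 to 3 and 2.29, 2.27 and 2.42 on sham 1 to 3. Kcnq5, another Kv7 gene, differed by 0.40 ± 0.30 SE (adjusted p = 0.934), with TAC 1 at 5.45 and the other arrays between 4.36 and 4.82, and was 0.15 without TAC 1. Kcnq1 was below the filter.

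**Figure D2:**
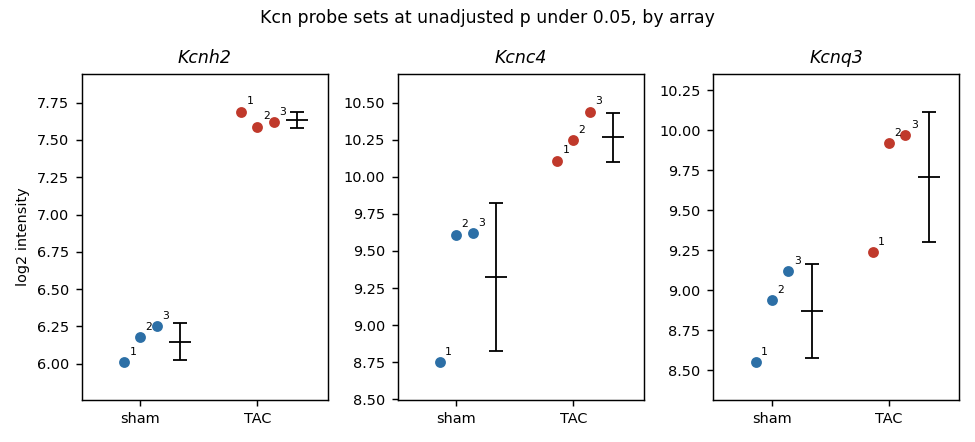
Log2 intensity (y axis) of the Kcnh2, Kcnc4 and Kcnq3 probe sets with an unadjusted p under 0.05, for 3 sham and 3 TAC arrays numbered by replicate; black bars give the mean and SD of each group. The TAC points of Kcnh2 sit between 7.59 and 7.69 and its sham points between 6.01 and 6.25, while Kcnc4 and Kcnq3 have wider groups whose edges are closer.

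Promoter sequence is printed for the genes among these 3 that are in the RefSeq promoter table, Kcnh2 and Kcnc4, to show what lies upstream of the members with the smallest p-values. Each window holds the 250 bases before the annotated start on the minus strand of GRCm38.p6, at chr5:24329592-24329841 for Kcnh2 and chr3:107458899-107459148 for Kcnc4. Capitals mark matches, on either strand, to the GC box GGGCGG, the E-box CANNTG or the cAMP response element core TGACG, and no matches overlap.
Kcnh2: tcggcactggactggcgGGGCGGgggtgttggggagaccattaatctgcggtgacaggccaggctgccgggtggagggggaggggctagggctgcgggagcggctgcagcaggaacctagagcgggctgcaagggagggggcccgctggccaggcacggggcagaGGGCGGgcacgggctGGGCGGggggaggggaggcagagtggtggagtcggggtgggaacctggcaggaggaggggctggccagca
Kcnc4: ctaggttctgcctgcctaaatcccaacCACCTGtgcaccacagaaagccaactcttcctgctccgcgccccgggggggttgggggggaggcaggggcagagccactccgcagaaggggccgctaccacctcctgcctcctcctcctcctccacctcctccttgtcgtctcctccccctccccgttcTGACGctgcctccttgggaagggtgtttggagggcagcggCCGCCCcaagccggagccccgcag
The Kcnh2 window held 3 GC boxes and 0 matches to either of the other motifs, with 73.6% G and C bases. The Kcnc4 window held 1 match to each, with 68% G and C. Over 32851 windows of the same length, 32.7% held a GC box, 66.2% an E-box and 17.8% the TGACG core. Windows were found for 22 of the 31 tested Kcn genes, 31 windows in all, of which 9 held a GC box, 23 an E-box and 7 the TGACG core. A match describes letters only, and these arrays did not measure binding.

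The other voltage-gated pore genes of the Kcna to Kcnd families gave no pair of groups without overlap. Of 9 tested genes, Kcnc4 included, 6 were higher and 3 lower (median 0.05), with differences from -0.40 to 0.94. Kcna5, which encodes the delayed rectifier Kv1.5, measured 8.44, 9.24 and 9.18 on TAC 1 to 3 and 6.79, 8.62 and 8.72 on sham 1 to 3. Its difference was 0.91 ± 0.58 SE (limma adjusted p = 0.898). Sham 1 and TAC 1 were the lowest arrays of their groups. The difference was 0.28 without sham 1 and 0.54 without both of these arrays. With the Gapdh difference as a covariate in the limma fit it was 1.26 ± 0.17 SE (adjusted p = 0.0686). Kcna2 (Kv1.2) varied more among mice than between groups, from 5.74 to 7.43 after TAC and from 5.31 to 7.52 after sham.

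Kcna1 (Kv1.1) was read by a probe set at -0.40 ± 0.32 SE and by another at 0.13 ± 0.70 SE. Kcnd3 (Kv4.3, an A-type channel) measured 4.97, 5.40 and 5.65 on TAC 1 to 3 and 4.89, 5.62 and 5.35 on sham 1 to 3, a difference of 0.05 ± 0.31 SE. Kcna4, Kcna6, Kcna7 and Kcnc1 lay between 4.10 and 6.02 on all arrays at the probe set that stood for each. Kcna6 and Kcna7 read nearly the same value on every array, with ranges over the 6 arrays of 0.08 and 0.17. The genes Kcna3, Kcnc2, Kcnd1 and Kcnd2 were below the filter. Of the silent Kv subunits, which form channels only with other Kv subunits, Kcns2 alone was tested, at 5.12, 5.30 and 5.48 on TAC 1 to 3 and 5.16, 5.07 and 5.07 on sham 1 to 3 (difference 0.20 ± 0.22 SE). Another 8 silent subunit genes were below the filter.

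Kcnma1 encodes the pore of the BK channel, opened jointly by calcium and voltage and well known in chromaffin cells. Probe set 1428948_at, which stood for the gene, measured 10.28, 10.89 and 10.47 on TAC 1 to 3 and 9.58, 10.40 and 10.62 on sham 1 to 3 (difference 0.35 ± 0.36 SE, limma adjusted p = 0.974). The difference was 0.03 without sham 1 and 0.17 without TAC 2. On this probe set TAC 1 and sham 1 were the lowest arrays of their groups. Probe set 1457018_at ran the other way, at 8.33, 5.64 and 7.56 on TAC 1 to 3 and 7.25, 4.83 and 5.41 on sham 1 to 3, with TAC 1 and sham 1 the highest of their groups. Its difference was larger at 1.35 ± 0.90 SE (adjusted p = 0.906), and so was its spread within groups, with SDs of 1.39 and 1.26. Probe set 1440728_at again had TAC 1 (7.00) and sham 1 (6.76) on top and differed by 0.24 ± 0.75 SE. Another Kcnma1 probe set, 1424848_at, stayed below the filter, at 3.12, 3.01 and 2.98 on TAC 1 to 3 and 3.32, 3.79 and 4.22 on sham 1 to 3. There every TAC array lay below every sham array, opposite in direction to the tested probe sets.

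The BK auxiliary gene Kcnmb2, whose subunit inactivates the channel, measured 8.66, 8.79 and 8.07 on TAC 1 to 3 and 7.85, 8.91 and 8.42 on sham 1 to 3 (difference 0.11 ± 0.37 SE). Its other probe set differed by 0.22 ± 0.30 SE. The groups overlapped on both. Kcnmb1 and Kcnmb4 were below the filter. Kcnn2, a small-conductance calcium-activated channel gene, measured 5.87, 5.11 and 4.56 on TAC 1 to 3 and 4.37, 4.56 and 5.44 on sham 1 to 3 (difference 0.39 ± 0.45 SE, 0.05 without TAC 1). The top arrays for Kcnn2, TAC 1 and sham 3, were also those with the highest mean of cortex markers, and the part of cortex tissue in this was not tested. Kcnt2, a sodium-activated channel gene, measured 7.01, 7.40 and 7.33 on TAC 1 to 3 and 6.91, 6.81 and 7.05 on sham 1 to 3 (difference 0.32 ± 0.23 SE). The genes Kcnn1, Kcnn3, Kcnn4, Kcnt1 and Kcnu1 were below the filter.

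The tandem-pore leak channel genes had the smallest differences of the role groups. The differences were 0.04 ± 0.50 SE for Kcnk2 (TREK-1), 0.04 ± 0.28 SE for Kcnk3 (TASK-1) and 0.02 ± 0.21 SE for Kcnk6, each with a limma adjusted p of 0.998. For Kcnk2 the mice within a group differed far more, from 10.60 on TAC 1 to 12.08 on TAC 2 and from 10.61 on sham 1 to 11.82 on sham 2. The 95% interval of the Kcnk3 difference ran from -0.65 to 0.74, so differences within those bounds cannot be told from none. Kcnk3 measured 8.47, 8.22 and 7.88 on TAC 1 to 3 and 7.97, 7.96 and 8.52 on sham 1 to 3. TAC 1 and sham 3, the arrays with the most cortex signal, were the highest for Kcnk3, and the part of cortex tissue in this was not tested. Kcnk1 passed log2 4 on sham 3 alone, at 5.34 against 3.19 to 3.34 elsewhere, and was not tested. Another 8 Kcnk genes were below the filter, Kcnk5 among them, and Kcnk9 was not analysed here.

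Of the inward rectifier genes, 1 of 4 tested was higher and 3 were lower (median -0.21). Kcnj11 encodes Kir6.2, the pore of ATP-sensitive channels. It read almost the same on all arrays, at 7.78, 7.55 and 7.76 on TAC 1 to 3 and 7.82, 7.68 and 7.74 on sham 1 to 3 (difference -0.05 ± 0.21 SE). The gene's other probe set, 1450515_at, was below the filter, at 2.19 to 2.33. Kcnj8 encodes Kir6.1, the ATP-sensitive pore best known from pericytes and smooth muscle. It measured 3.14, 4.49 and 3.11 on TAC 1 to 3 and 2.95, 4.85 and 5.11 on sham 1 to 3, so it passed the filter through 1 TAC and 2 sham arrays. Its difference was -0.72 ± 0.69 SE, with 3 of 6 values under log2 4, and it ran from -1.40 without sham 1 to -0.32 without sham 3. Kcnj3, a G protein-activated rectifier gene, measured 5.32, 4.78 and 4.34 on TAC 1 to 3 and 5.06, 5.41 and 5.09 on sham 1 to 3 (difference -0.37 ± 0.32 SE, limma adjusted p = 0.946). Kcnj10, a rectifier known from glia, differed by 0.11 ± 0.28 SE. Another 11 Kcnj genes, among them Kcnj5, known for its role in aldosterone-producing cells, were below the filter.

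Among the auxiliary genes 2 of 6 tested were higher and 4 lower (median -0.40, against 0.05 for all Kcn genes). Kcnip1 encodes KChIP1, a calcium sensor that binds Kv4 channels, and its 3 tested probe sets disagreed. Probe set 1433156_at measured 6.77, 4.92 and 6.38 on TAC 1 to 3 and 8.41, 5.77 and 5.57 on sham 1 to 3 (difference -0.56 ± 0.89 SE). Probe set 1448459_at measured 5.78, 7.22 and 6.21 and then 3.50, 6.81 and 7.07, a difference of 0.61 ± 1.01 SE, so sham 1 was the highest array on one and the lowest on the other. Probe set 1416785_at measured 3.81, 4.10 and 3.36 on TAC 1 to 3 and 4.17, 4.55 and 4.41 on sham 1 to 3. This was the only tested Kcn probe set with all TAC arrays below all sham arrays (difference -0.62 ± 0.28 SE, limma adjusted p = 0.761), and it lay close to the filter. The auxiliary genes Kcnab2, Kcne1, Kcne1l, Kcne2, Kcne3 and Kcnip2 were below it.

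Kcne4, a small subunit that dampens voltage-gated channels, measured 4.24, 4.52 and 4.51 on TAC 1 to 3 and 5.14, 5.68 and 4.42 on sham 1 to 3. Sham 3 fell among the TAC arrays, and the difference was -0.66 ± 0.36 SE (limma adjusted p = 0.849). Kcnip4 (-0.39 ± 0.39 SE) and the beta subunit genes Kcnab1 (-0.41 ± 0.53 SE) and Kcnab3 (0.17 ± 0.30 SE) overlapped between groups. Kcnab1 was highest on sham 2 (8.05) and lowest on sham 1 (6.15), with all TAC arrays between. At the filter's edge, a Kcna6 probe set just passed, with 4.02 as its third-highest value. Kcnip3 just missed it, at 3.86, 3.94 and 3.71 on TAC 1 to 3 and 3.97, 4.33 and 4.79 on sham 1 to 3. Of the 124 Kcn probe sets below the filter, 119 reached log2 4 on 0 arrays, 4 on 1 array and 1 on 2 arrays, and 34 of the 124 belong to genes with a tested probe set. Of the 43 tested, 35 reached it on all 6 arrays and 3 on exactly 3 arrays, drawn from both groups each time.

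Kcnq1ot1 is a long noncoding RNA made antisense within Kcnq1 and known for imprinting, and its symbol brings it under the rule although it encodes no channel. It had the widest range of all tested members. Probe set 1442029_at measured 9.68, 6.48 and 8.42 on TAC 1 to 3 and 10.60, 6.68 and 6.95 on sham 1 to 3, a range of 4.12 over the arrays against a difference of 0.12 ± 1.28 SE between groups. Its other tested probe sets differed by 0.36 ± 0.57 SE and -0.43 ± 0.56 SE. The last (1457781_at) measured 4.96, 3.80 and 5.51 on TAC 1 to 3 and 5.99, 4.64 and 4.92 on sham 1 to 3. Sham 1 was the highest array on all 3 tested probe sets. The noncoding Kcnmb4os1 and Kcnmb4os2 were below the filter.

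TAC 1 and sham 1, the arrays whose Gapdh control difference was largest, stood together at one edge of their groups at 29 of 43 tested Kcn probe sets (67.4%), beside 64.0% of all tested, a share near the background. At 16 of 43 tested probe sets (37.2%, background 19.9% of all tested) both were the highest arrays of their groups. Among these were a probe set each of Kcnip1, Kcnj3 and Kcna1 and both of Kcnh3. At 13 of 43 (30.2%, background 44.1%) both were the lowest, among them Kcnk2, Kcna2, Kcna5, Kcnq3 and both Kcnc4 probe sets. Kcnh2 was in neither set. Kcna1, Kcnma1 and Kcnip1 had probe sets in both sets, and the part of RNA quality in these patterns was not tested.

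**Figure D3:**
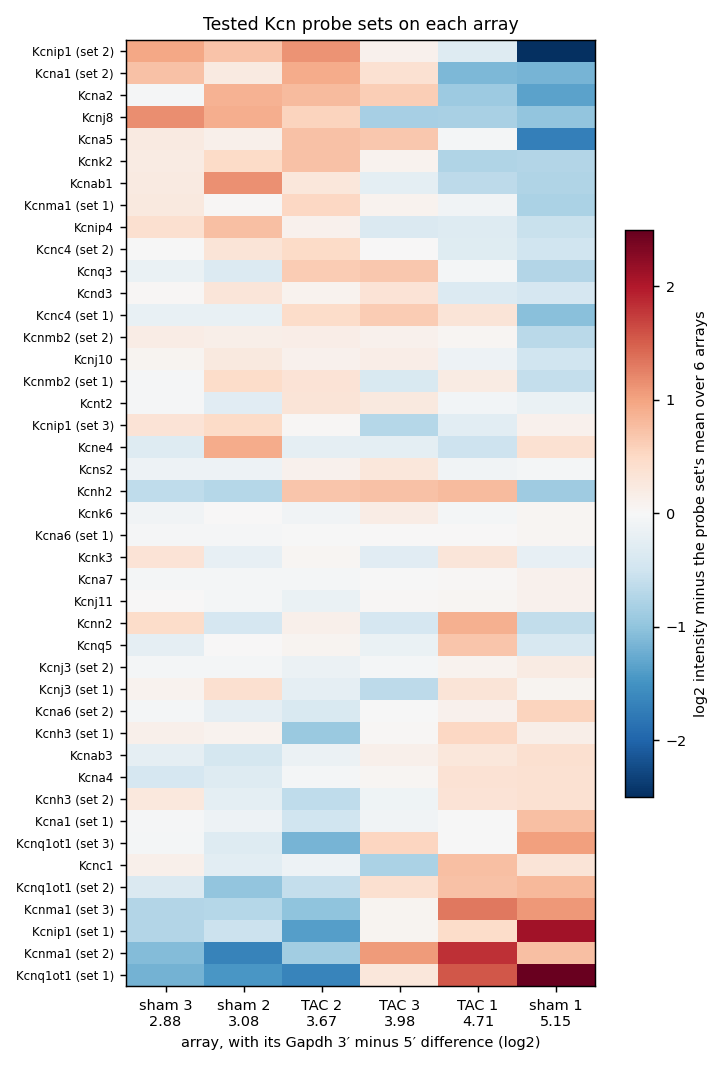
Log2 intensity minus each probe set's own mean over the 6 arrays (colour) for the 43 tested Kcn probe sets (rows), with arrays in the order of their Gapdh 3′ minus 5′ difference (x axis, log2). Rows at the top are lowest and rows at the bottom highest on TAC 1 and sham 1, while the Kcnh2 row is high on the 3 TAC arrays and low on the 3 sham arrays.

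**Figure D4:**
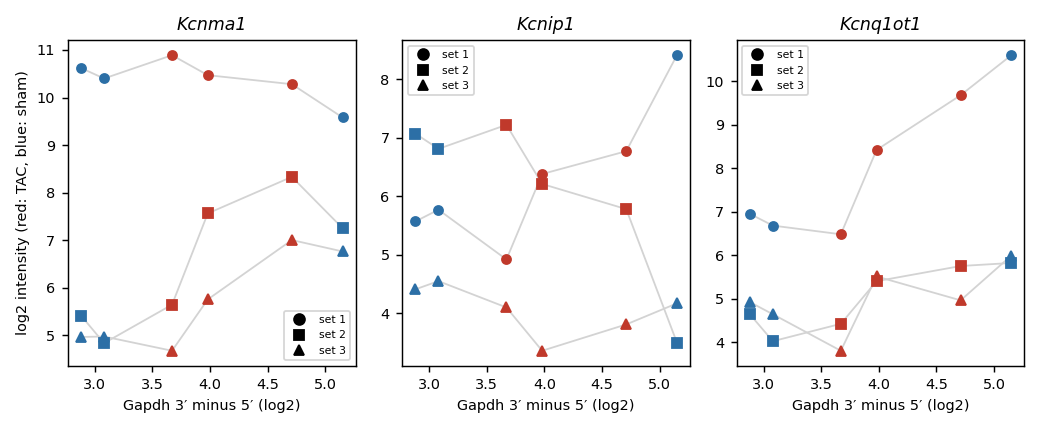
Log2 intensity (y axis) of the 3 tested probe sets each of Kcnma1, Kcnip1 and Kcnq1ot1 against the Gapdh 3′ minus 5′ difference of the array (x axis, log2), red for TAC and blue for sham, 1 point per array; grey lines join the points of 1 probe set. Kcnma1 set 1 (1428948_at) is lowest on sham 1, at 9.58, and sets 2 and 3 are highest on TAC 1, at 8.33 and 7.00.

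Among the tested probe sets of the 9 Kcn genes with several, those of 4 had differences of both signs (Kcna1, Kcna6, Kcnip1 and Kcnq1ot1) and those of 5 had 1 sign (Kcnc4, Kcnh3, Kcnj3, Kcnma1 and Kcnmb2). At the other extreme, 4 of 43 probe sets (9.30%, against 2.66% of all tested) spanned less than 0.3 over the 6 arrays, those of Kcna6, Kcna7, Kcnj11 and Kcnk6. Probe sets below the filter could be as flat, such as 1421790_a_at of Kcnab3 (range 0.08) and 1450515_at of Kcnj11 (0.14). A narrow range therefore does not show steady expression, and whether these values are background signal was not tested. The median range over the arrays was 1.30 for the Kcn probe sets and 1.38 for all tested.

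Other genes that bind, anchor or regulate potassium channels, or carry current beside them, were taken as a list of 40, of which 24 were tested. Higher after TAC were 15 of them and lower 9, with a median of 0.14 (0.09 over all genes), and 0 passed the adjusted threshold. At an unadjusted p under 0.05 there were 2 of 24, both higher, where 6.14% of all tested genes were called higher. With 1 probe set per gene, the unadjusted calls were Nedd4l and Amigo1. Nedd4l, a ubiquitin ligase that removes ion channels from the membrane, measured 7.46, 7.55 and 7.20 on TAC 1 to 3 and 6.54, 6.52 and 6.73 on sham 1 to 3 (difference 0.81 ± 0.22 SE, limma adjusted p = 0.520). Amigo1, an auxiliary protein of voltage-gated potassium channels, measured 8.97, 8.57 and 8.14 on TAC 1 to 3 and 7.62, 7.76 and 7.63 on sham 1 to 3 (difference 0.89 ± 0.28 SE, adjusted p = 0.574). The groups did not overlap for either gene at these probe sets, and the Nedd4l difference was 0.43 when its tested probe sets were averaged. Among the sodium channel, Hcn and Nalcn genes of the list, 6 of 9 were higher, with differences from -0.42 to 0.92.

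**Figure D5:**
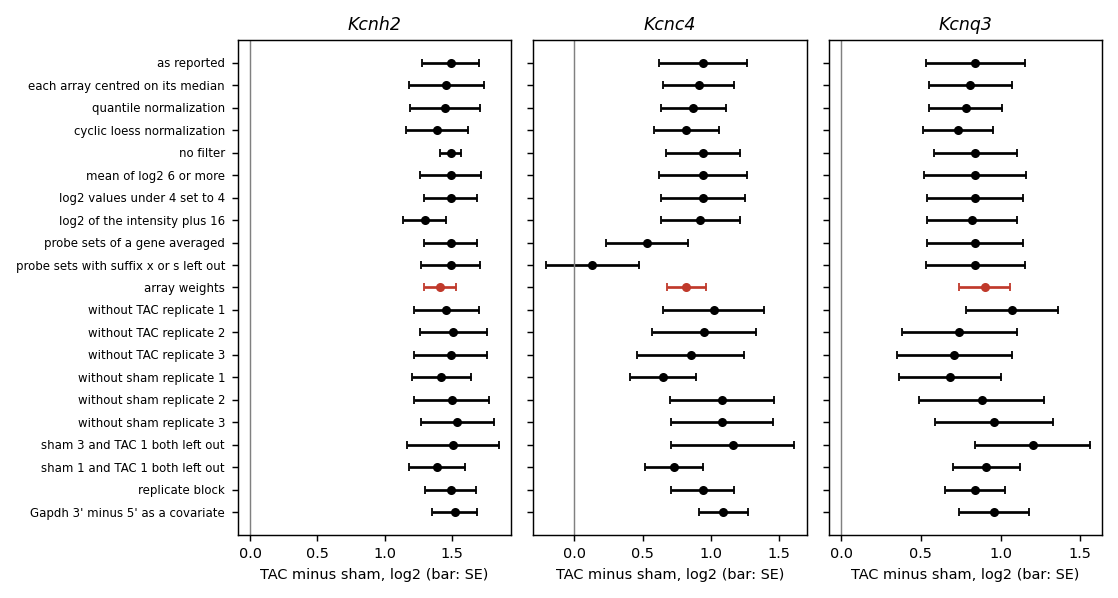
TAC minus sham in log2 intensity with its SE (x axis) for Kcnh2, Kcnc4 and Kcnq3 under the reported setting and 20 others (y axis); red marks an adjusted p under 0.05. The Kcnh2 difference lies between 1.30 and 1.54 throughout, Kcnc4 drops to 0.13 when probe sets with suffix x or s are left out, and the red points are those fitted with array weights.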

How the data were processed

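The authors deposited 1 linear intensity per probe set and array (Affymetrix mouse expression arrays, 3 TAC and 3 sham). Per the submitters' processing notes GCRMA was used, which corrects background and summarises probes. Its version is not given in the sources used here. Values were log2-transformed without further scaling. The 64 array controls were left out, and 18188 of 45101 probe sets passed the filter of log2 4 on 3 or more arrays. They were tested 2-sided with lmFit and eBayes of limma 3.58.1 (R 4.3.3, 4 residual degrees of freedom, Benjamini-Hochberg threshold 0.05). The procedure was run on simulated data with independent noise on each array, which leaves out deviations shared between arrays. Precision is limited by the number of arrays, with a median SE of a difference of 0.39. Each of the 167 Kcn probe sets matched RefSeq (GRCm38.p6) by Entrez identifier, which updated 0 symbols. Values on every array are given for Kcnh2, for members with an unadjusted p under 0.05, for the smallest p in each role group and for a list of excitability genes; other members were chosen after their values were seen. Members and lists were chosen with earlier results of these data known. The closing section gives other scalings, filters, probe set choices, array weights, left-out arrays and covariates.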

Additional observations from a re-analysis of the deposited data

How the results depend on the processing

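The 20 other settings kept 0 adjusted calls, over all tested probe sets and among the Kcn probe sets, except array weights, which gave 6698 (36.8%) and 10 (23.3%, 6 of them higher). The weights were 6.11 for TAC 3 and 0.143 to 2.96 for the others, so the TAC side rested mostly on 1 mouse. The Kcn count at an unadjusted p under 0.05 was 5 of 167 with no filter (3 higher, 2 lower), beside 2110 of 45037 over all probe sets. It was 17 of 43 with array weights (12 and 5), beside 8749 of 18188. With the Gapdh difference as a covariate it was 8 of 43 (6 and 2), beside 3843 of 18188. In each of these settings the Kcn share was below that of all probe sets. When 1 array was left out the Kcn count was 1 to 5, beside 641 to 2429 over all tested. Kcnh2, Kcnc4 and Kcnq3 were the 3 members under median centring, quantile and cyclic loess scaling, while the share of higher probe sets among all at that p fell from 67.0% to 50.7%, 56.4% and 43.4%. With array weights the Kcnh2 difference was 1.41 (adjusted p = 0.0036); its adjusted p lay between 0.0595 and 1 in the other settings. The median Kcn difference lay between 0 and 0.11, and the median over all genes between -0.10 and 0.31 (0.31 without sham 3 and TAC 1, 0.21 with the covariate or without TAC 1).

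The samples share only a number across groups: deviations correlated at 0.76 and 0.78 for replicates 1 and 2 and at -0.22 for replicates 3, beside -0.84 to 0.71 for pairs of unlike number. With the replicate number as a block, 6 of 43 Kcn probe sets had an unadjusted p under 0.05, beside 3005 of 18188 over all tested. The Kcn share was below that of all tested. An adjusted p under 0.05 was reached by 0 Kcn probe sets, and the Kcnh2 difference was 1.49 (limma adjusted p = 0.182).

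Small differences changed sign, and the cause was not tested. With array weights these were Kcnip1 (0.59), Kcnj11 (0.04), Kcnk2 (-0.24), Kcnk3 (-0.30), Kcnma1 (-0.01), Kcnmb2 (-0.49) and Kcnn2 (-0.33). After quantile scaling Kcnk2 was -0.02 and Kcnk3 -0.01, and after cyclic loess Kcnk2 was -0.07, Kcnk3 -0.06, Kcnd3 0 and Kcnk6 -0.01. With arrays centred on their medians Kcnk6 was -0.01. Without sham 1 and TAC 1, chosen after seeing the data, Kcnk3 was -0.18, Kcnmb2 -0.24, Kcnn2 -0.16 and Kcnj10 -0.02. Kcnq1ot1 was -1.19 without sham 3 and TAC 1 and -0.67 with the covariate. Leaving out 1 array gave ranges of -0.89 to 0.06 for Kcnab1, 0 to 0.42 for Kcnab3, -0.11 to 0.26 for Kcnj10, -0.07 to 0.07 for Kcnk6, -0.15 to 0.24 for Kcnd3, -0.57 to 0.16 for Kcnh3, -1.06 to 0.35 for Kcnip1, -0.09 to 0.02 for Kcnj11, -0.32 to 0.43 for Kcnk2, -0.10 to 0.23 for Kcnk3, -0.16 to 0.37 for Kcnmb2 and -0.63 to 1.38 for Kcnq1ot1. Without a change of sign, the ranges were -0.76 (without sham 1) to -0.11 (without sham 2) for Kcnip4, -0.63 (without TAC 1) to -0.14 (without TAC 3) for Kcnj3, -0.56 (without sham 2) to -0.12 (without sham 1) for Kcna1, -0.99 (without sham 3) to -0.36 (without sham 2) for Kcne4 and 0.05 (without TAC 1) to 0.72 (without sham 3) for Kcnn2.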
